A study of Mus musculus with 4 samples.

Results

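Imprinted genes, which mammals express from the copy inherited from 1 parent, were followed in cultured smooth muscle cells of the mouse aorta (VSMCs), which contract the vessel in the body and divide in culture. The members were 38 named mouse genes, looked up by symbol in a deposited table of 25965 genes. A row was found for 35 of them: 14 of 16 maternally expressed and 21 of 22 paternally expressed genes. Rian, Mirg and Kcnq1ot1 had no row under their own or an older symbol and were not analysed here. The 4 libraries were made from polyadenylated RNA and form 1 group. All came from the aortic medial layer of healthy male wild-type C57Bl/6 mice aged 8 to 14 weeks, digested with collagenase and elastase, grown in DMEM with 10% serum and passaged 3 to 5 times. No treatment or other genotype was included. The mice were inbred, so parental alleles could not be told apart, and "maternally expressed" and "paternally expressed" below are textbook labels and not measurements.

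Imprinting is set in the germline, mostly by DNA methylation of a control region, and is kept through cell division by methylation enzymes and by zinc finger proteins such as ZFP57. Imprinted genes lie in clusters that often pair a long noncoding RNA from one parental copy with protein-coding genes from the other. Many act on growth: Igf2 and other paternally expressed genes tend to promote it, while Igf2r, Grb10 and Cdkn1c restrain it. Many are high in the fetus and are turned down after birth.

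The libraries held 56265771, 55521915, 40342561 and 56793195 reads on genes (libraries 1 to 4), of which the 35 members took 0.232%, 0.167%, 0.126% and 0.139%. Levels are the deposited log2 values of scaled reads, without division by length unless "per kb" is said, and errors are SDs over the libraries (n = 4). Library 1 stood highest and library 3 lowest for many genes: the median detected gene had 5.49, 5.22, 4.78 and 4.95 in libraries 1 to 4. Scaling by the median ratio moved the libraries by -0.32, -0.10, 0.30 and 0.12 log2 units, so differences between libraries are also given relative to that. Smooth muscle identity was present, with all 8 contractile markers detected, Acta2 at 12.18 ± 1.05 and Myh11 at 7.44 ± 1.65. Adventitial fibroblast markers (5 of 6 detected, none at 0) summed to 22598, 17673, 1839 and 1747 reads and smooth muscle markers to 347146, 260535, 544232 and 873823. Leukocyte markers (2 of 6 detected, with Ptprc and C1qa at 0 in library 3 and Itgam at 0 in libraries 2, 3 and 4) summed to 1746, 1285, 297 and 386 reads. Endothelial markers (4 of 6 detected) summed to 1501, 968, 1131 and 480, adipocyte markers (1 of 4, Plin1 at 0) to 521, 443, 197 and 352, and nerve markers (2 of 6, mostly S100b) to 4058, 4022, 10330 and 9126. Fewer cells of a type and less RNA per cell cannot be told apart in bulk RNA. Nothing in the labels says whether the libraries came from separate mice or cultures, so the spread between them may be technical.

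Of the 35 members, 24 were detected, meaning that no library fell below a log2 value of 0, against 47.4% of all genes in the table. By parental origin these were 10 of 14 maternally and 14 of 21 paternally expressed genes. A further 9 had reads in some libraries without reaching detection, and Magel2 and Usp29 had no reads in any library, as did 28.7% of all genes. Over all rows, the median level was 4.35 for maternally expressed members, 2.11 for paternally expressed members and 0.13 for all genes. Among detected genes it was 7.66 for maternally expressed members, 3.93 for paternally expressed members and 5.09 for all. The maternally expressed set was the higher one in both, while the paternally expressed set lay above the median gene over all rows and below it among detected genes. Detection and level were not used to choose the members, though earlier results of these data were known when they were chosen.

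**Figure D1:**
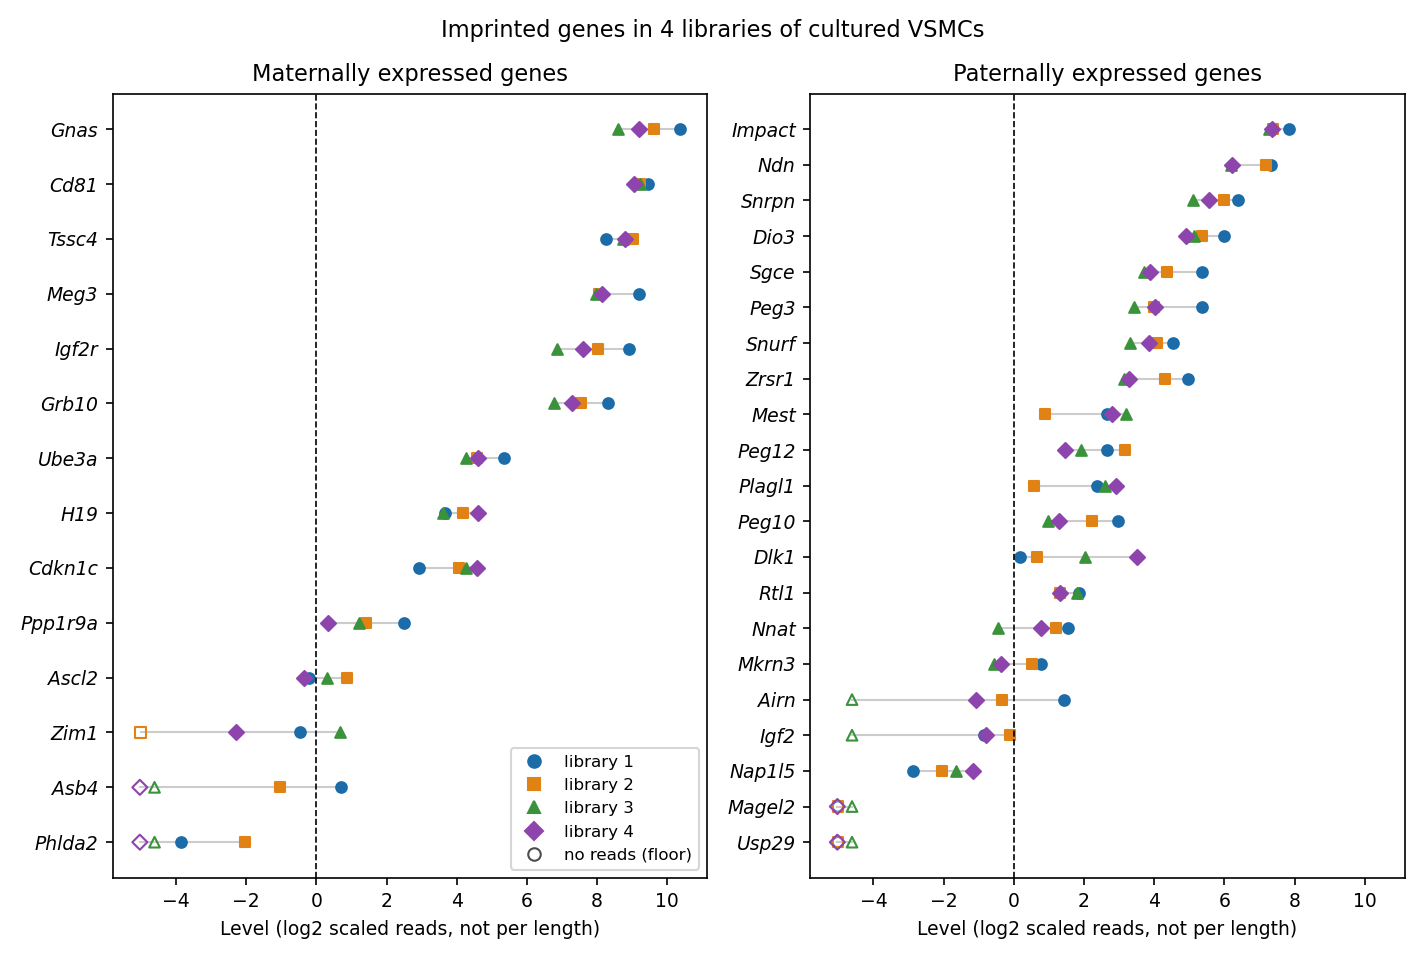
Level (log2 scaled reads, not divided by length) of the 35 imprinted genes with a row, in libraries 1 to 4, sorted by mean, with open symbols for libraries without reads and a dashed line at the detection threshold of 0. Gnas, Cd81 and Tssc4 lie highest among maternally expressed genes and Impact and Ndn among paternally expressed genes, while Igf2, Phlda2, Asb4, Zim1 and Airn reach the floor in at least 1 library.

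Gnas, whose locus encodes the stimulatory G protein subunit that links hormone receptors to cyclic AMP, had the highest level of the members before division by length (chr2:174284320-174346744, GRCm38). Its levels were 10.37, 9.63, 8.60 and 9.20 in libraries 1 to 4, a mean of 9.45 ± 0.74 that ranked 421 among the 25965 genes. Library 1 was highest and library 3 lowest. The row spans the whole complex locus, in which the G protein transcript itself is expressed from both copies in most tissues, so the reads are not those of an imprinted transcript alone. A row for Gm20721, annotated on the other strand inside Gnas, listed 36365, 21652, 7722 and 15930 reads, or 94.6%, 94.7%, 90.5% and 92.1% of the Gnas reads. The strand setting of the counting is not given in the sources used here, and reads of overlapping genes on opposite strands cannot be told apart.

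Cd81, a tetraspanin gene, and Tssc4, its neighbour on distal chromosome 7, followed Gnas. Both are known as imprinted mainly in the placenta. Cd81 had levels of 9.44, 9.22, 9.22 and 9.04, the smallest spread of the detected members as deposited (9.23 ± 0.16). With median-ratio scaling its SD was 0.19 and that of Impact was smaller, at 0.12. Tssc4 had 8.26, 9.02, 8.75 and 8.80 (8.71 ± 0.32) and was lowest in library 1, where most members were highest. Trpm5 spans Tssc4 on the other strand and had 895, 1067, 713 and 980 reads, or 7.09% to 10.0% of those of Tssc4. Per kb of exon Tssc4 and Cd81 were the highest members, with Tssc4 at 7.83 ± 0.32 and Cd81 at 7.71 ± 0.16, a difference smaller than the spread.

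Genes that restrain growth were found at very different levels. Igf2r encodes the receptor that takes up IGF2 for destruction in lysosomes and sorts lysosomal enzymes (chr17:12682406-12769664). Its levels were 8.90, 8.03, 6.85 and 7.59 (7.84 ± 0.85), and Grb10, an adaptor that dampens insulin and IGF1 receptor signalling, had 8.31, 7.53, 6.77 and 7.30 (7.48 ± 0.64). Both were highest in library 1 and lowest in library 3. Cdkn1c, which encodes the CDK inhibitor p57, was instead lowest in library 1 and highest in library 4, with 2.91, 4.07, 4.27 and 4.58 (3.96 ± 0.73). Phlda2, a placental growth regulator, had 2, 7, 0 and 0 reads, where 0 allows up to 3 reads.

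Of the maternally expressed noncoding RNAs with a row, Meg3 was higher than H19, by less once length was divided out. Meg3 lies in the Dlk1-Dio3 cluster (chr12:109541001-109571726) and is processed together with downstream small RNAs. Its levels were 9.21, 8.07, 7.98 and 8.14 (8.35 ± 0.58), with library 1 apart from the other 3, which lay close together. H19, one of the most abundant RNAs of fetal tissue (chr7:142575529-142578143), had 368, 525, 266 and 713 reads, levels of 3.66, 4.18, 3.60 and 4.60 (4.01 ± 0.47). The annotated exons of Meg3 cover 18089 bases and those of H19 2460. Per kb Meg3 averaged 4.17 ± 0.58 and H19 2.71 ± 0.47, and in library 4 they were at 3.97 and 3.30. The H19 row holds miR-675, and the Meg3 row holds miR-770 and miR-1906, the last not printed here. These microRNAs were not measured by this assay. The mature sequences of miR-675 and miR-770, from RefSeq on GRCm38.p6, lie inside these rows by position, with the seed (bases 2 to 8) in capitals.
mmu-miR-675-5p: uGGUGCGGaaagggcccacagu
mmu-miR-675-3p: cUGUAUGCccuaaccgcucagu
mmu-miR-770-5p: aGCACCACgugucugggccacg
mmu-miR-770-3p: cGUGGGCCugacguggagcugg
No pair among the 22 mature microRNAs lying inside the members' rows shared a seed.

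The remaining maternally expressed members were lower. Ube3a, an E3 ubiquitin ligase gene imprinted in neurons and expressed from both copies in most other cells, had 5.36, 4.58, 4.26 and 4.59 (4.70 ± 0.47). Ppp1r9a, an actin-binding neurabin gene, had 2.50, 1.41, 1.21 and 0.33 (1.37 ± 0.89). These were again highest in library 1. Ascl2, a transcription factor gene of the trophoblast, reached the threshold in 2 libraries with 25, 53, 27 and 23 reads. Zim1, a zinc finger gene beside Peg3, had 21, 0, 35 and 6 reads, and Asb4, a gene of a ubiquitin ligase subunit, had 47, 14, 0 and 0.

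Igf2, the fetal growth factor gene (chr7:142650766-142666816), was close to absent: 16, 27, 0 and 17 reads in libraries 1 to 4. In library 3 the count of 0 allows up to 3 reads. H19 and Igf2 share enhancers and are expressed from opposite parental copies. Per base of exon, H19 exceeded Igf2 by 53.5-fold, 45.2-fold and 97.6-fold in libraries 1, 2 and 4 and by at least 206-fold in library 3. The receptor gene Igf2r exceeded the ligand gene per base by 533-fold, 172-fold and 204-fold in libraries 1, 2 and 4 and by at least 521-fold in library 3.

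The Dlk1-Dio3 cluster on chromosome 12 was expressed from end to end among the genes with a row, but its genes did not share an order of libraries. Dlk1, which encodes a membrane protein that holds back adipocyte differentiation (chr12:109452823-109463336), had 33, 46, 90 and 334 reads. Its levels of 0.18, 0.67, 2.03 and 3.51 (1.60 ± 1.49) spanned 10.0-fold, the widest range among detected members. Dio3, at the other end, encodes the deiodinase that inactivates thyroid hormone and was the most abundant paternally expressed gene of the cluster, at 6.00, 5.35, 5.13 and 4.92 (5.35 ± 0.47). Library 1 was thus lowest for Dlk1 and highest for Dio3 and Meg3. Meg3 exceeded Dlk1 per kb by 7.35, 5.72, 4.27 and 2.96 log2 units in libraries 1 to 4, a mean of 5.07 ± 1.89.

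Rtl1, a gene derived from a retrotransposon that is needed for placental capillaries, had 106, 72, 77 and 73 reads (1.58 ± 0.30), one of the more even members. The maternal copy carries an antisense transcript there that holds microRNAs matching the Rtl1 RNA in full. Of 13 mature microRNAs inside the row, 11 lie on the opposite strand, and the reverse complement of each of these 11 was found in the Rtl1 transcript of GENCODE M21. Reads of the antisense transcript and of Rtl1 cannot be told apart in these counts. The sequences below, from RefSeq on GRCm38.p6, are 1 arm of each antisense hairpin that has a named pair of arms, with the seed in capitals.
mmu-miR-431-5p: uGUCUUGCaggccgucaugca
mmu-miR-433-3p: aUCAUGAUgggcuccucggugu
mmu-miR-127-3p: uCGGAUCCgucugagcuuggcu
mmu-miR-434-3p: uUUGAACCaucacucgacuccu
mmu-miR-136-5p: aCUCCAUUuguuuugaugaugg

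The Prader-Willi and Angelman region of chromosome 7 was uneven. Ndn, which encodes necdin, a growth-suppressing MAGE protein of neurons and mesenchymal cells, had 7.33, 7.19, 6.17 and 6.23 (6.73 ± 0.61), with libraries 1 and 2 above libraries 3 and 4. Magel2, the related gene beside it, had no reads in 4 of 4 libraries. Per base of exon Ndn exceeded Magel2 by at least 1948-fold, 1761-fold, 664-fold and 921-fold in libraries 1 to 4, counting 0 as 3 reads in each. The Ndn row covers only 1652 of 3694 annotated exon bases. With the covered bases as length the bounds were 4356-fold, 3939-fold, 1485-fold and 2059-fold. Peg12 followed with 184, 261, 83 and 80 reads (2.30 ± 0.77), and Mkrn3, a makorin gene linked to the timing of puberty, with 50, 41, 15 and 23. In these genes too libraries 1 and 2 lay above 3 and 4. Summed fibroblast markers (22598, 17673, 1839 and 1747 reads) and leukocyte markers (1746, 1285, 297 and 386 reads) had the same split, and their part in it was not tested.

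Snrpn, a gene of a splicing protein, had 6.39, 6.00, 5.09 and 5.57 (5.76 ± 0.56). Snurf, read from the same transcript and lying inside the Snrpn row, had 676, 486, 220 and 422 reads, or 27.7%, 26.4%, 29.3% and 30.3% of the Snrpn reads. These counts do not separate the pair. Ube3a, the maternally expressed gene of the region, lay below Snrpn per kb in 4 of 4 libraries (-4.32 ± 0.25). That difference was -1.07 without division by length, because the exons annotated for Ube3a cover 20626 bases against 2159 for Snrpn.

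Peg3 and Sgce, at separate loci, were both highest in library 1 and lowest in library 3. Peg3, a zinc finger gene of growth and maternal behaviour, had 5.36, 4.00, 3.42 and 4.02 (4.20 ± 0.82). The Usp29 row had no reads, but it covers only 2610 of 18078 annotated exon bases, and within it Peg3 was at least 78.2-fold, 30.2-fold, 15.4-fold and 31.2-fold higher per base in libraries 1 to 4. Sgce, the epsilon-sarcoglycan gene, had 5.35, 4.35, 3.70 and 3.89 (4.32 ± 0.74). Peg10, a retrotransposon-derived gene that starts beside Sgce and runs the other way, had 2.97, 2.21, 0.97 and 1.27 (1.85 ± 0.91). Both genes of this pair had the order 1, 2, 4, 3 from highest to lowest, and Sgce exceeded Peg10 per kb by 1.71, 1.47, 2.06 and 1.94 (1.80 ± 0.26). With the longest transcript as length the difference was 3.06.

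Several paternally expressed members lie as small genes within others. Zrsr1, a splicing factor gene inside Commd1, had 4.97, 4.31, 3.13 and 3.27 (3.92 ± 0.87), while Commd1 was steady at 7.89 ± 0.16. Zrsr1 minus its host was -2.32, -3.35, -4.36 and -4.22 log2 units per kb (-3.56 ± 0.94). Nnat, a gene of a neuronal membrane protein, reached the threshold in 3 of 4 libraries with 85, 66, 16 and 50 reads and lay below its host Blcap per kb (-5.36 ± 0.99). Nap1l5, inside Herc3, had 4, 7, 7 and 13 reads and was also below its host per kb (-2.16 ± 0.88, or -4.47 without division by length). In each pair the embedded gene was the lower one in 4 of 4 libraries. Each is annotated on the strand opposite to its host, and reads of such overlapping genes cannot be told apart in these counts.

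Impact, a gene of a translation regulator, was the highest paternally expressed member and among the most even, at 7.85, 7.38, 7.26 and 7.36 (7.46 ± 0.26). Per kb it averaged 5.10, above Ndn at 4.84 ± 0.61 and Snrpn at 4.65 ± 0.56, differences within the spread of Ndn and Snrpn. The Ndn row covers only 1652 of 3694 annotated exon bases and the Impact row 4149 of 5129. With the covered bases as length, Ndn would lie above Impact. Airn, the noncoding RNA that silences Igf2r on the paternal copy and overlaps it on the other strand, had 79, 23, 0 and 14 reads. Igf2r exceeded it per base by 67.9-fold, 127-fold and 156-fold in libraries 1, 2 and 4, and by at least 328-fold in library 3. The length used for Airn was its 3597 annotated exon bases, fewer than its row spans. The rows of Airn and Igf2r share 28354 bases, and reads of genes overlapping on opposite strands cannot be told apart.

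Within libraries, 17 differences were planned and 10 could be given, since the other 7 involve a gene without a row or without reads in a library. All 10 had 1 sign in 4 of 4 libraries, except that Plagl1 minus Peg3 was positive in 1 library when exons were clipped to the deposited span. Flipping the signs of the differences in an exact permutation test, two-sided, gave p = 0.125 for each (Benjamini-Hochberg adjusted p = 0.125 over 10). With 4 libraries no smaller p can be reached, and the test cannot pass 0.05. The steadiest was the median per kb of detected maternally minus paternally expressed members, at 3.45, 3.17, 3.10 and 3.23 (3.24 ± 0.15), with 4.21 ± 0.62 for the maternal set and 0.98 ± 0.47 for the paternal set without Snurf. With means in place of medians it was 2.30, and over all measured members, detected or not, 2.99 ± 0.89, no longer the steadiest. This difference is between summaries of gene sets, while the others are between single genes, so their spreads are not alike. The widest was Meg3 minus Dlk1. Gnas exceeded Nnat, the other chromosome 2 member, by 6.07 ± 0.31.

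**Figure D2:**
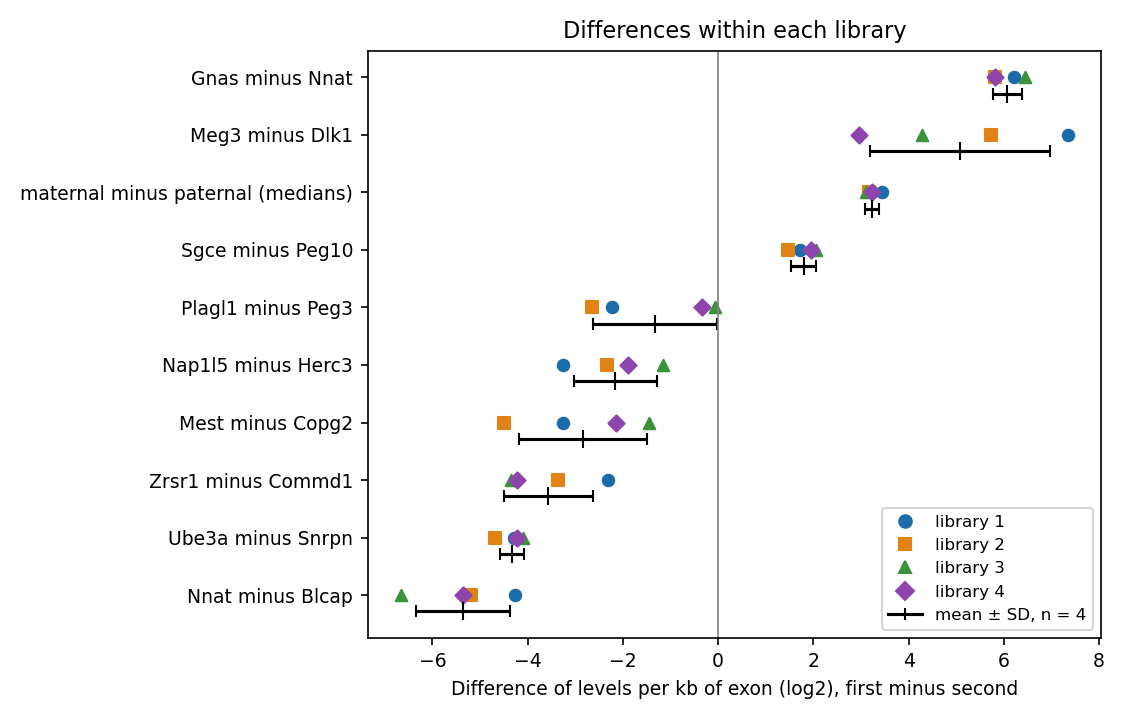
Difference between levels per kb of exon (log2, first minus second) in each library, with the mean ± SD over 4 libraries as a black bar beneath the points. The maternal minus paternal difference keeps within 3.10 to 3.45, while Meg3 minus Dlk1 runs between 2.96 and 7.35.

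Spread between libraries was common among the members. Of the 24 detected, 17 had an SD above 0.5, against 40.5% of all detected genes: 6 of 10 maternally and 11 of 14 paternally expressed genes. Dlk1, Plagl1 and Mest had an SD above 1, against 5.80% of detected genes. With median-ratio scaling 11 of 23 detected members had an SD above 0.5, against 30.8%, and Dlk1 fell below detection in library 1. Without library 1 the count was 11 of 24, against 27.2%. The members at or below 0.5 as deposited were Cd81, Impact, Rtl1, Tssc4, Dio3, Ube3a and H19, of which Tssc4 (0.51) and H19 (0.57) exceeded it with median-ratio scaling.

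**Figure D3:**
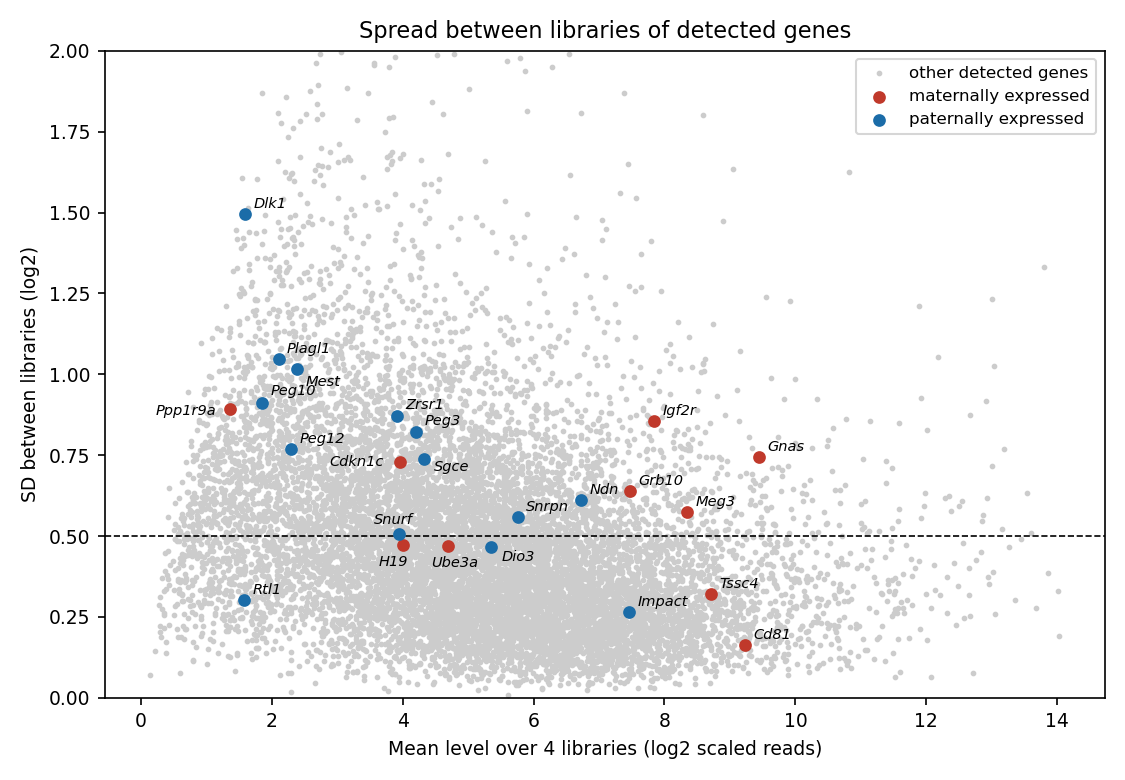
SD between the 4 libraries against mean level (both log2) for detected genes, with maternally and paternally expressed members in colour and a dashed line at an SD of 0.5; 29 genes with an SD above 2 lie outside the plot. Dlk1, Plagl1 and Mest lie above 1, and 7 members lie below the line.

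The leading pattern was a high library 1. It held the highest level of 17 of the 24 detected members, against 53.6% of all detected genes, and library 3 the lowest of 14, against 52.9%. This pattern moved with exon length over all genes. Among the 3696 detected genes with exons of 5902 bases or more, 73.1% were highest in library 1, as were 10 of the 11 members of that size. Among the 3696 with 3291 bases or less it was 34.3%, and 4 of 8 members. With median-ratio scaling, 13 of 24 members were highest in library 1 (31.0% of detected genes). Mitochondrial reads made up 0.0653%, 0.133%, 0.382% and 0.113% of reads in libraries 1 to 4, and 8421, 9070, 10801 and 9957 genes had no reads, so library 3 was highest and library 1 lowest in both. Library 3 also had the fewest reads on genes (40342561), and the number of genes without reads depends on depth. The part of length, of depth and of RNA quality in the members' pattern was not tested.

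A smaller group ran against it. Dlk1, Cdkn1c, H19 and Plagl1 were highest in library 4, as were 10.8% of detected genes, and Mest was highest in library 3. Tssc4 and Peg12 were highest in library 2, as were 2908 of the 12306 detected genes. Dlk1, Cdkn1c, H19, Plagl1, Mest and Peg12 kept the same highest library with median-ratio scaling, while Tssc4 moved to library 3. Dlk1, Cdkn1c and Tssc4 were lowest in library 1 as deposited.

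**Figure D4:**
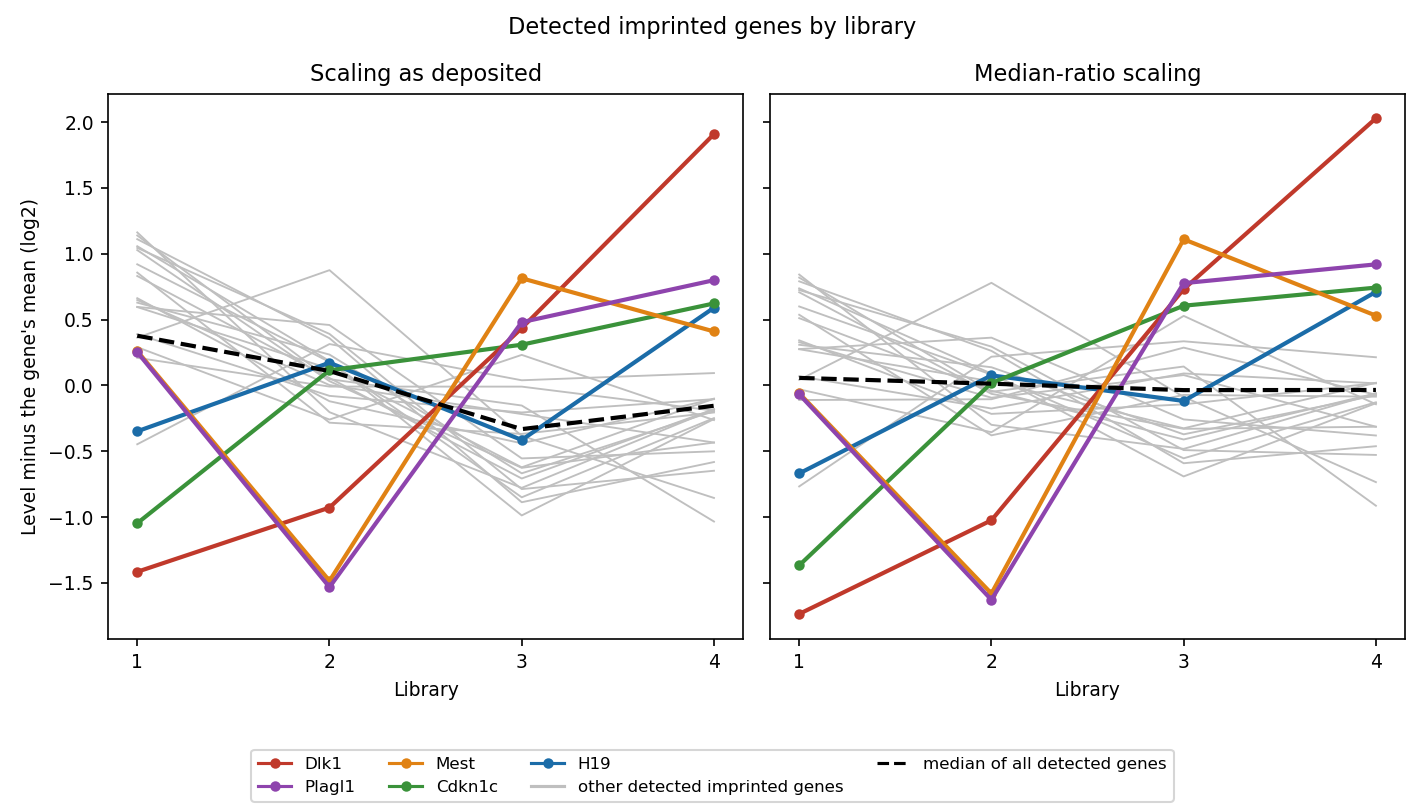
Level minus the gene's own mean (log2) for the 24 detected imprinted genes in each library, as deposited and with median-ratio scaling; lines link the values of a gene and the libraries have no order. Most members (grey) lie above their mean in library 1 as the median of all detected genes does (dashed), while Mest and Plagl1 are both lowest in library 2 and Dlk1 lies highest in library 4.

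Plagl1 and Mest, on different chromosomes, were both lowest in library 2, and were set side by side after their values were seen. Plagl1, a zinc finger factor described as a hub among imprinted genes (chr10:13090691-13131694), had 149, 43, 132 and 220 reads, or 2.36, 0.57, 2.59 and 2.90 (2.11 ± 1.05). Mest, which encodes a hydrolase-like protein of mesoderm and growing fat (chr6:30723547-30748455), had 182, 54, 202 and 204 reads, or 2.65, 0.90, 3.20 and 2.80 (2.39 ± 1.02). Relative to their means these were 0.25, -1.53, 0.48 and 0.80 for Plagl1 and 0.26, -1.48, 0.81 and 0.41 for Mest. Of detected genes, 13.2% were lowest in library 2. The profiles differ at the top, with Plagl1 highest in library 4 and Mest in library 3. Copg2, which overlaps the end of Mest on the other strand, was not low in library 2 (6.28, 5.78, 5.02 and 5.32).

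Of the 8 contractile markers, 6 were also lowest in library 2 and 7 highest in library 4. Myh11 had 7.12, 5.33, 8.08 and 9.24, Acta2 12.04, 10.76, 12.77 and 13.16, and Tagln 11.49, 10.54, 11.61 and 12.27. Plagl1 had this order of libraries exactly (2, 1, 3, 4 from low to high), which 2.77% of detected genes had, and it was the only detected member to have it. The part of the contractile state in the levels of Plagl1 and Mest was not tested.

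Promoter windows are shown for Mest and Plagl1, both lowest in library 2, and for Dlk1 and Meg3, of 1 cluster with different highest libraries. Each runs from 250 bases before to 50 after a RefSeq start on GRCm38.p6, plus strand, with TGCCGC (the core of the ZFP57 motif) in capitals on either strand, where GCGGCA is its reverse complement.
Mest, chr6:30737800-30738099: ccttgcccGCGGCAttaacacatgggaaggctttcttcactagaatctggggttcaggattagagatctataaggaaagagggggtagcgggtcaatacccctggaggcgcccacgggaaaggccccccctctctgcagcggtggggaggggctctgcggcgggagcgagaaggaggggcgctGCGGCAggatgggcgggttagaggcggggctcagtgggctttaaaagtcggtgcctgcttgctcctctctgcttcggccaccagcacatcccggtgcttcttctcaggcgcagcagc
Plagl1, chr10:13090582-13090881: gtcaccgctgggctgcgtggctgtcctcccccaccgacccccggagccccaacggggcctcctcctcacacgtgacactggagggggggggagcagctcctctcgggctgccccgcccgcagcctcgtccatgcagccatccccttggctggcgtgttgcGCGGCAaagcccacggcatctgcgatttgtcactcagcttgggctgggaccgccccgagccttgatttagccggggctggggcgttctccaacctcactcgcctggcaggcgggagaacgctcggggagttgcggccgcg
Dlk1, chr12:109452573-109452872: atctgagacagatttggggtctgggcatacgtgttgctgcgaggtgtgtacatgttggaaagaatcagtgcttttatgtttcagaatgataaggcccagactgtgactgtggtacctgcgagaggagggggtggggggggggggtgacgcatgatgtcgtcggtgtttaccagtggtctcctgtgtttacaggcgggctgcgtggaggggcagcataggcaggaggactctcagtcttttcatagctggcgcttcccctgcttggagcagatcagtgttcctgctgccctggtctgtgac
Meg3, chr12:109540746-109541045: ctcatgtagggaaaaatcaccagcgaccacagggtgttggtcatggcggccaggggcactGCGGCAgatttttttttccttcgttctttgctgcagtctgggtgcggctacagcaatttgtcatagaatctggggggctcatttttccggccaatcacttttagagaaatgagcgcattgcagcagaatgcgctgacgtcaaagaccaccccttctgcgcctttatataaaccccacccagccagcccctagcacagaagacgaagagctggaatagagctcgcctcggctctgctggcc
The word occurs in 2 places in the Mest window and in 1 in those of Plagl1 and Meg3, and is not in the Dlk1 window. The RefSeq windows used were 47 for 32 of the 38 members, some overlapping. Of these, 11 windows of 10 genes held TGCCGC on either strand (23.4%), against 11.6% of all 32851 windows. By origin it was in 8 of 26 windows of paternally and 3 of 21 of maternally expressed genes. The 8 are not separate sites, since they hold the same interval for Snrpn and for Snurf and overlapping windows of Mest. The windows held a median of 13 CpG sites, against 7 over all windows. Cdkn1c, H19, Impact, Peg10, Rtl1 and Sgce had no window among the 47 used. A match describes letters only, and methylation was not measured.

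Neighbours and hosts of the members had 17 of 27 genes detected (63.0%, against 47.4% of all genes), of which 6 had an SD above 0.5 (35.3%, near the 40.5% of all detected genes). The highest by deposited level were H13 (10.37 ± 0.29), a signal peptide peptidase gene that hosts the imprinted Mcts2, Nap1l4 (8.18 ± 0.29), a nucleosome assembly gene, Commd1 and Osbpl5 (7.78 ± 0.42), a lipid transfer gene. Tnfrsf23, a decoy receptor gene beside Osbpl5, had 5.70, 5.42, 3.83 and 4.03. Libraries 1 and 2 were thus above 3 and 4, the split seen for Ndn. The undetected neighbours with an SD above 1 were Kcnq1, Th, Slc22a2, Calcr, Tfpi2 and Ddc, none above 22 reads in a library. Other imprinted genes had 6 of 13 detected (46.2%, about the share of all genes), led by Trappc9 (7.07 ± 0.22), Dcn, encoding the matrix proteoglycan decorin (4.45 ± 1.84), Inpp5f (3.93 ± 0.71) and Pde10a (2.81 ± 0.65). Dcn, also a fibroblast marker, had 6.53, 5.35, 3.54 and 2.40. Slc38a4, Gatm, Htr2a and Nespas were undetected with an SD above 1, and Rasgrf1 and Kcnk9 had no reads. Peg13, Zim3, Zfp264 and Nesp were not matched to a row and were not analysed here.

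Genes that keep or read imprints had 14 of 20 detected (70.0%, against 47.4% of all genes). Of these, 11 had an SD above 0.5 as deposited and 3 with median-ratio scaling (40.5% and 30.7% of all detected genes). Ehmt2, an H3K9 methyltransferase gene, averaged 9.62 ± 0.29 and Trim28, the corepressor recruited by KRAB zinc finger proteins, 8.88 ± 0.23. The maintenance methylation genes Dnmt1 (6.90, 7.24, 5.52 and 6.07) and Uhrf1 (6.52, 6.94, 4.84 and 5.15) were highest in library 2. Zfp57, best known from oocytes and embryonic stem cells, was even at 4.86, 4.73, 4.74 and 4.94 (4.82 ± 0.10). Zfp445, a zinc finger gene that acts alongside it, had 4.82, 3.09, 3.67 and 4.22 (3.95 ± 0.74). Dnmt3l, a cofactor of germline methylation, had reads in libraries 1 (77) and 2 (104) but 0 in libraries 3 and 4. The oocyte and stem cell genes Dppa3, Nlrp2 and Zfp42 stayed at 4 reads or fewer per library, and Dnmt3b had 36, 8, 60 and 18.

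Of 17 genes of the IGF axis and related CDK inhibitors, without Igf2 itself, 15 were detected (88.2%, against 47.4% of all genes). Of these, 10 had an SD above 0.5 as deposited and 9 with median-ratio scaling (40.5% and 30.7% of all detected genes). Igfbp2 was the highest by deposited level at 12.70, 11.39, 13.91 and 14.02 (SD 1.23), followed by Igfbp4 (10.20 ± 0.08), Cdkn1a (9.47 ± 0.12) and Igfbp7 (8.36 ± 0.78). Binding proteins hold IGFs away from their receptors. Igf1, the other ligand gene, had 4.95, 3.85, 5.42 and 5.19 (4.85 ± 0.70), again lowest in library 2. The receptor gene Igf1r averaged 7.88 ± 0.20. Igfbp5 (3.64 ± 1.51), Pappa (4.14 ± 1.41), Igfbp3 (3.59 ± 1.14) and Igf2bp3 (1.90 ± 1.63, not detected in library 3) had an SD above 1. Of the 15 genes of an imprinted gene network described in mouse tissues, 12 were detected (80.0%, against 47.4% of all genes). Of these, 11 had an SD above 0.5 as deposited and 8 with median-ratio scaling (40.5% and 30.7% of all detected genes). All but Dcn and Gatm are members, so these counts overlap with those above.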

How the data were processed

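The deposited file, made by the authors, gives 25965 genes a log2 value in each library. The kit was TruSeq Stranded mRNA with 4 ug of RNA (integrity number 7.8 to 9), according to the labels' protocols. The submitters' processing notes name the tools Trim Galore, cutadapt and TopHat and the build GRCm38. The counting tool is not given in the sources used here. Each deposited log2 value is a whole number of reads times a library constant, judged by the values themselves (99.7% to 99.8% within 0.05 read), with genes without reads listed at 0.9 read. A 0 was taken to allow 3 reads, for counting error only. Exon lengths (union over transcripts, GENCODE M21, GRCm38) matched 87.0% of genes and 24 of 24 detected members; Snurf, annotated with 216 bases, was left out of medians per kb. Members and lists were chosen with earlier results of these data known. All members are named, and of every other list the 4 highest detected genes and those with an SD above 1; markers are given as sums. Alternatives were other thresholds, median-ratio size factors, other lengths, means, all measured members, a depth-scaled log2 with pseudocount 1, and leaving out each library. Library order, length groups, zeros set at 3 reads and exons clipped to the deposited span were added after the data were seen. Software was Python (3.11.15) with numpy (2.4.6), scipy (1.17.1), pandas (2.3.3) and, for figures, matplotlib (3.10.9).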

Additional observations from a re-analysis of the deposited data

Results flagged for a closer look

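Meg3 stood apart in library 1, at a level of 9.21 against 7.98 to 8.14 in the other 3 libraries. Igf2 stood apart in library 3, at the floor of -4.61 (0 reads, which allows up to 3), against levels of -0.86, -0.10 and -0.79 in libraries 1, 2 and 4 (16, 27 and 17 reads). The gap to the nearest library was 0.867 of the range for Meg3 and 0.831 for Igf2, both past Dixon's critical value for 4 samples. For Igf2 this rests on the deposited floor: with the library without reads set at 3 reads the share was 0.725 and no longer past it. Both shares are for the deposited scaling. With median-ratio scaling Meg3 had levels of 8.89, 7.97, 8.28 and 8.26 in libraries 1 to 4, so library 1 stood less far apart. Of 33 members with reads, 2 were set apart in this way, and chance alone sets apart about 5% of groups.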

How the results depend on the processing

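The number of detected members was 19 with a log2 threshold of 1, 27 with at least 10 reads, 30 with 1 library sufficing, 23 with median-ratio scaling and 24 to 25 with a library left out. The 17 members with an SD above 0.5 became 3 with an SD above 1, 11 with median-ratio scaling, 21 with reads in 4 of 4 libraries as the only filter and 11 to 18 with a library left out, with 11 reached without library 1. The 14 members lowest in library 3 became 8 with median-ratio scaling (28.7% of detected genes), and the 17 highest in library 1 became 13. The means of the 10 within-library differences kept their sign under each length. Single libraries did too, except that Plagl1 minus Peg3 was positive in 1 of 4 with exons clipped to the deposited span (mean -1.23, p = 0.25, exact). Over all measured members the maternal minus paternal difference was 2.99 ± 0.89 against 3.24 ± 0.15, and with a library left out the smallest p is 0.25. Their values moved by over 1.5 times for Ube3a minus Snrpn (-1.07) and Nap1l5 minus Herc3 (-4.47) without division by length, for Plagl1 minus Peg3 (-2.10 without division by length, -0.88 without library 2, against -1.33) and for Sgce minus Peg10 with the longest transcript (3.06 against 1.80). Means in place of medians over all rows of a list gave 2.77 against 3.12 for imprinted genes, 2.26 against 3.49 for neighbours and hosts, 3.11 against 4.60 for imprint regulators, 5.50 against 4.84 for the IGF list, -2.41 against -4.20 for adipocyte markers and 0.57 against -0.42 for nerve markers. The cause was not tested. Mean levels of 20 of the 35 members moved by more than their SD with a depth-scaled log2 and pseudocount 1, whose scale differs. Median-ratio scaling leaves means unchanged by construction, so it is no check of them. No paired analysis was possible between samples because they form 1 group; the within-library differences pair genes. Depth limits Igf2, Phlda2, Asb4, Zim1, Airn, Nap1l5, Magel2 and Usp29, which have fewer than 10 reads in at least 1 library.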
